A study of Mus musculus with 12 samples.

Results

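Expression of 7 genes of vascular mural cells and smooth muscle was examined across 12 mouse lung arrays, read by 10 probe sets out of the 45101 in the table. The genes were Rgs5 (3 probe sets), Notch3 (2 probe sets), Pdgfrb, Acta2, Tagln, Cnn1 and Des (1 probe set each). The names come from the member list, which pairs each probe set number of the array with a gene, and could not be checked against a platform annotation here. The members were chosen by gene name with results of these data in view, and which of those results weighed is not recorded. The log2 signals of tumors against both kinds of lung are therefore counted as used in the choice, and those differences are given below as descriptions without a test. Non-transgenic lung came from FVB mice, an inbred strain. Adjacent normal lung and lung adenocarcinoma came from FVB mice in which the promoter of human surfactant protein C, active in alveolar type II cells, drove wild-type human Cyclin E. Each group had 4 arrays of male mice aged 7 to 11 months, and no agent is named for any group. The transgene is directed to epithelial cells, whereas the genes described here are known as genes of mural cells and smooth muscle. Which cells of the tissue gave their signal was not tested. Tissues were identified by gross pathology, the methods call the adjacent lung normal by histopathology, and no sorting of cells is described.

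Mural cells are the pericytes that wrap capillaries and the smooth muscle cells that line larger vessels, and smooth muscle also lines airways. Endothelial cells recruit pericytes by secreting platelet-derived growth factor B, which binds the receptor encoded by Pdgfrb, and Notch3 is the Notch receptor of mural cells. Rgs5 encodes a GTPase-activating protein that shortens signalling from G-protein coupled receptors and is a common marker of pericytes, known to be abundant in the vessels of many tumors. Acta2 (smooth muscle alpha-actin), Tagln (transgelin) and Cnn1 (calponin, an actin-binding inhibitor of contraction) belong to the contractile apparatus, and Des encodes desmin, the intermediate filament of muscle. Serum response factor, which drives many contractile genes, binds a DNA element called the CArG box.

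Promoter sequence was available from RefSeq (build GRCm38.p6) for 5 of the 7 genes and not for Tagln and Pdgfrb. Shown are those of the member gene highest in tumors relative to lung (Rgs5), of the one lowest (Cnn1) and of the contractile gene whose tumors disagreed most (Acta2). Each covers the 250 bases before the start site, written 5′ to 3′ on the strand of the gene, and capitals mark stretches at most 1 letter off a CArG box. The Rgs5 window is chr1:169655251-169655500 (plus strand), that of Cnn1 is chr9:22099003-22099252 (plus strand) and that of Acta2 is chr19:34255374-34255623 (minus strand).
Rgs5: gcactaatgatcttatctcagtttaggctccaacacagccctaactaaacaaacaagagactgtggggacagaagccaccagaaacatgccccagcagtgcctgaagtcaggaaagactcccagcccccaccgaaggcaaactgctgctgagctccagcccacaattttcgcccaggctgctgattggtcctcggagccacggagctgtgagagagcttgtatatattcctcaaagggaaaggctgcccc
Cnn1: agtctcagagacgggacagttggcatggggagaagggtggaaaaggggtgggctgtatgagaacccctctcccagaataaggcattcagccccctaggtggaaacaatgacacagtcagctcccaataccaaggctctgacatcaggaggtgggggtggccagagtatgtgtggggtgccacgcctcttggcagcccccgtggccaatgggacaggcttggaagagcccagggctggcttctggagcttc
Acta2: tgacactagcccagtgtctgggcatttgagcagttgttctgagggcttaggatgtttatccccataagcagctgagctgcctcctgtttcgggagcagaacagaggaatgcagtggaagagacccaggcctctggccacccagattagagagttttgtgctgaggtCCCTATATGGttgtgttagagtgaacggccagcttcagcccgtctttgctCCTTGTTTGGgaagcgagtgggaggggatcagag
None of the 5 promoters held an exact CArG box on either strand, which 1.47% of all 32851 promoter windows held. Acta2 alone held stretches 1 letter off, CCCTATATGG and CCTTGTTTGG, which began 84 and 34 bases before the start site. A stretch of this kind was in 18.6% of all windows, and this looser search was chosen after the exact one had found none. The match is a description of letters and shows no binding.

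The arrays themselves differed in ways that bear on these genes. Tumor 2 lay at a mean Euclidean distance of 153.9 from the other tumors over the 23538 probe sets tested, against 96.7 to 102.9 for each of the others, and adjacent normal lung 3 lay at 104.7 from its group, against 66.2 to 69.8. Tumor 2 was nearer to the 8 lungs (a mean distance of 112.0) than to the other tumors, whereas tumors 1, 3 and 4 lay 169.3 to 177.4 from the lungs. The cell makeup of tumor 2 was not tested. Among the values below, it was the tumor with the lowest Rgs5, Acta2 and Tagln and the highest Notch3, Cnn1 and Des. For Pdgfrb it was neither the lowest nor the highest. As a sign of RNA integrity, the excess of 3′ over 5′ signal was averaged over the control sets of beta-actin and Gapdh. It ranged from 0.30 to 0.61 among tumors, with the highest value in tumor 2, from 0.39 to 0.57 among adjacent normal lungs and from 0.35 to 0.49 among non-transgenic lungs. The part of RNA quality in the results was not tested. The median log2 signal of an array was 4.10 to 4.13 among tumors and 4.18 to 4.19 among non-transgenic lungs. Among adjacent normal lungs it was 4.17 to 4.38, with the highest value in adjacent normal lung 3. All values below are log2 signals on the authors' scale, in which 1 unit is a 2-fold difference, and errors of differences are standard errors (SE) from the spread of 4 arrays in each group. In whole tissue, fewer cells of a type and less RNA per cell cannot be told apart.

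Rgs5 was the member with the highest signal in tumors relative to lung, and its 2 brighter probe sets showed it alike. With probe set 1417466_AT the log2 signal was 9.50, 8.28, 9.27 and 10.19 in tumors 1 to 4. It was 6.34, 6.93, 6.29 and 6.85 in adjacent normal lungs and 6.46, 5.98, 5.21 and 5.83 in non-transgenic lungs. Every tumor lay above every lung, with a gap of more than 1 unit between the lowest tumor and the highest lung. Tumors averaged 9.31 ± 0.79 (SD, n = 4) and adjacent normal lungs 6.60 ± 0.33 (SD, n = 4), a difference of 2.71 (SE 0.43) or 6.55-fold. Against non-transgenic lung, at 5.87 ± 0.52 (SD, n = 4), the difference was 3.44 (SE 0.47) or 10.9-fold.

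Probe set 1420941_AT reads the same gene and gave 8.32, 7.12, 8.11 and 9.05 in tumors 1 to 4. Adjacent normal lungs gave 5.06, 5.85, 3.64 and 5.63, and non-transgenic lungs gave 5.84, 5.14, 4.42 and 4.45. Again no tumor overlapped any lung. The difference was 3.10 (SE 0.64) or 8.59-fold against adjacent normal lung and 3.19 (SE 0.52) or 9.12-fold against non-transgenic lung. Adjacent normal lung 3, the array that stood apart, lay lowest here and below the median of the whole table (4.18). Without that lung and tumor 2 the difference was 2.98, and for 1417466_AT it was 2.95. Among the 23538 probe sets tested, 1420941_AT had the 17th and 1417466_AT the 37th largest difference of tumor over adjacent normal lung.

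The remaining Rgs5 probe set, 1420940_X_AT, was dim on every array and did not show this pattern. Its log2 signal ranged from 2.99 to 3.56 among tumors, from 2.76 to 3.39 among adjacent normal lungs and from 2.74 to 2.92 among non-transgenic lungs. All 12 values lay below the table median of 4.18, so that this probe set was the 1 member of 10 that did not pass the filter on low values. Its suffix, x, is the maker's mark for sets that hold probes similar to other transcripts. No detection calls were in the table, and a signal at this level was not shown to be above background.

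Pdgfrb and Notch3, the receptors of mural cells, did not share the Rgs5 pattern. Pdgfrb (1436970_A_AT) was at 7.84, 7.96, 7.43 and 8.37 in tumors 1 to 4. It was at 8.57, 8.20, 7.94 and 8.42 in adjacent normal lungs and at 7.98, 8.47, 8.23 and 8.24 in non-transgenic lungs. Tumors 2 and 4 lay within the range of the lungs, and tumors 1 and 3 lay below all of them. The difference of the means was -0.38 (SE 0.24) against adjacent normal lung and -0.33 (SE 0.22) against non-transgenic lung, and the groups overlapped in both cases. Without tumor 3 these differences were -0.23 and -0.17.

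Notch3 was lower in tumors than in adjacent normal lung with 1 of its 2 probe sets when ranges are compared. Probe set 1421964_AT gave 5.40, 5.90, 4.40 and 5.57 in tumors 1 to 4 and 6.84, 6.13, 6.10 and 6.22 in adjacent normal lungs. These 2 groups did not overlap, and the difference was -1.01 (SE 0.37). Non-transgenic lungs, at 5.71, 6.35, 5.76 and 5.84, overlapped with the tumors, and that difference was -0.60 (SE 0.36), or -0.29 without tumor 3. Probe set 1421965_S_AT, whose suffix marks probes shared between transcripts, ranged from 6.15 to 7.18 among tumors, from 6.51 to 7.59 among adjacent normal lungs and from 6.76 to 7.33 among non-transgenic lungs. Its differences were -0.62 (SE 0.35) and -0.45 (SE 0.29), with overlap in both, and the second was -0.30 without tumor 3. Tumor 3 was the lowest tumor and tumor 2 the highest with both Notch3 probe sets. Without tumor 2 and adjacent normal lung 3 the difference from adjacent normal lung was -1.27 for 1421964_AT and -1.05 for 1421965_S_AT.

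The contractile genes and Des differed among themselves. Cnn1, Des and Tagln were lower in all 4 tumors than in all 8 lungs, while Acta2 was not. Cnn1 (1417917_AT) was at 3.95, 4.31, 3.98 and 4.04 in tumors 1 to 4. The signal was 6.51, 6.80, 7.24 and 6.63 in adjacent normal lungs and 6.58, 6.69, 6.83 and 6.46 in non-transgenic lungs. The tumors were tightly grouped (4.07 ± 0.16, SD, n = 4), unlike for most members. The difference was -2.73 (SE 0.18) against adjacent normal lung, 6.62-fold lower, and -2.57 (SE 0.11) against non-transgenic lung, 5.93-fold lower. Only tumor 2 lay above the table median of 4.18, so that the tumor level was not shown to be above background and the size of the difference is uncertain.

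Des (1426731_AT) was at 5.52, 6.56, 5.06 and 5.41 in tumors 1 to 4. Adjacent normal lungs gave 7.75, 7.65, 7.66 and 7.50, and non-transgenic lungs gave 7.42, 7.64, 7.55 and 7.52. The 8 lungs spanned the narrowest range of any member that passed the filter. Tumor 2 was the closest to the lungs and still below the lowest of them. The difference was -2.00 (SE 0.33) against adjacent normal lung and -1.89 (SE 0.33) against non-transgenic lung, or 4.00-fold and 3.71-fold lower, and -2.30 and -2.20 without tumor 2 and adjacent normal lung 3.

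Tagln (1423505_AT) was at 8.32, 7.48, 7.55 and 8.15 in tumors 1 to 4, and no tumor reached any lung. Adjacent normal lungs were at 9.44, 9.21, 9.36 and 9.50 and non-transgenic lungs at 8.93, 9.26, 9.43 and 9.55. Its difference was -1.50 (SE 0.22) against adjacent normal lung, 2.83-fold lower, and -1.42 (SE 0.25) against non-transgenic lung, 2.67-fold lower. Here tumor 2 was the lowest tumor, whereas for Des and Cnn1 it was the highest.

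Acta2 (1416454_S_AT) separated the tumors from each other more than from the lungs. Its signal was 10.60 in tumor 1, 8.34 in tumor 2, 9.04 in tumor 3 and 9.50 in tumor 4, while adjacent normal lungs ranged from 9.78 to 9.97 and non-transgenic lungs from 9.49 to 9.91. Tumor 1 lay above all 8 lungs and tumors 2 and 3 below them, while tumor 4 lay within the range of the non-transgenic lungs. The SD was 0.95 in tumors, 0.09 in adjacent normal lung and 0.20 in non-transgenic lung (n = 4 each). The difference of the means was -0.50 (SE 0.47) against adjacent normal lung and -0.38 (SE 0.48) against non-transgenic lung, within the spread of the tumors. It was -0.91 without tumor 1 and -0.16 without tumor 2 in the first comparison, and -0.79 and -0.04 in the second, so that single tumors set its size. The suffix s marks a set whose probes are shared between transcripts, and actins are closely related in sequence. For the 3′ control of beta-actin, tumors averaged 13.22 ± 0.03 (SD, n = 4) and adjacent normal lungs 13.41 ± 0.11 (SD, n = 4), and its part in the Acta2 signal was not tested.

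**Figure D1:**
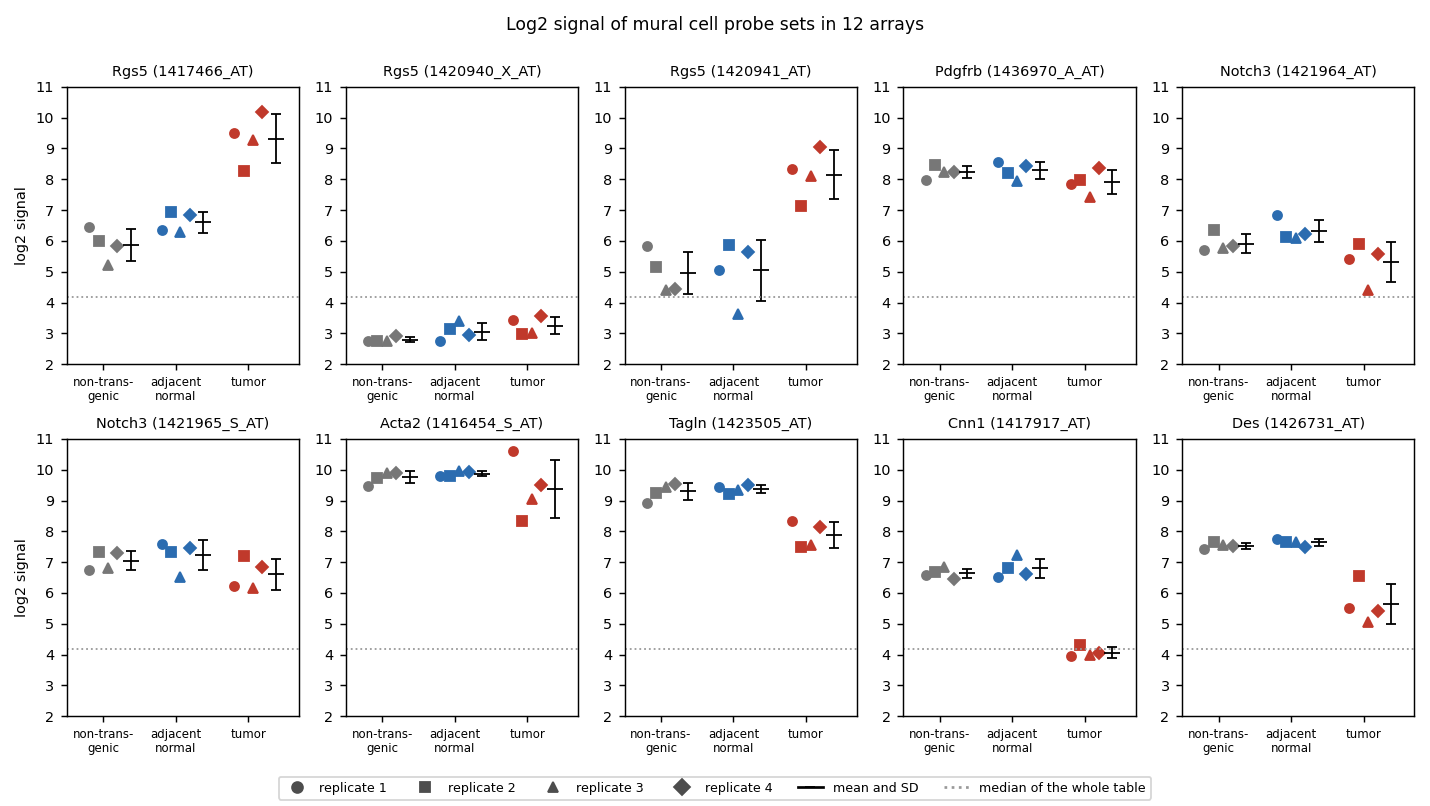
Log2 signal (vertical axes) of the 10 probe sets in tumors, adjacent normal lungs and non-transgenic lungs, with 1 point per array, the symbol giving the replicate number, bars for the mean and SD of 4 arrays and a dotted line at the table median of 4.18. The tumors sit above all lungs in Rgs5 1417466_AT and 1420941_AT, below all lungs in Tagln, Cnn1 and Des, and spread from 8.34 to 10.60 in Acta2.

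Counted together, 2 of the 10 probe sets (both of Rgs5) had all 4 tumors above all 8 lungs, and 3 of 10 (Tagln, Cnn1 and Des) had all 4 tumors below. Over all 23538 probe sets tested, 6.98% had the tumors above and 10.6% had them below all lungs. Against adjacent normal lung alone, 2 members did not overlap on the higher side and 4 on the lower side, where 10.4% and 13.0% of all probe sets did. Against non-transgenic lung alone these were 3 and 3, with 13.3% and 15.2% of all probe sets, and the additional member on the higher side was the dim 1420940_X_AT. These shares are given for scale only, since the members were chosen with such differences known. With the probe sets of a gene that passed the filter averaged, so that Rgs5 was read from 2 of its 3, the median difference over the 7 genes was -0.81 against adjacent normal lung and -0.52 against non-transgenic lung, beside a median of 0.07 in both comparisons over all probe sets tested. The comparisons share the 4 tumor arrays and are not independent of each other.

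**Figure D2:**
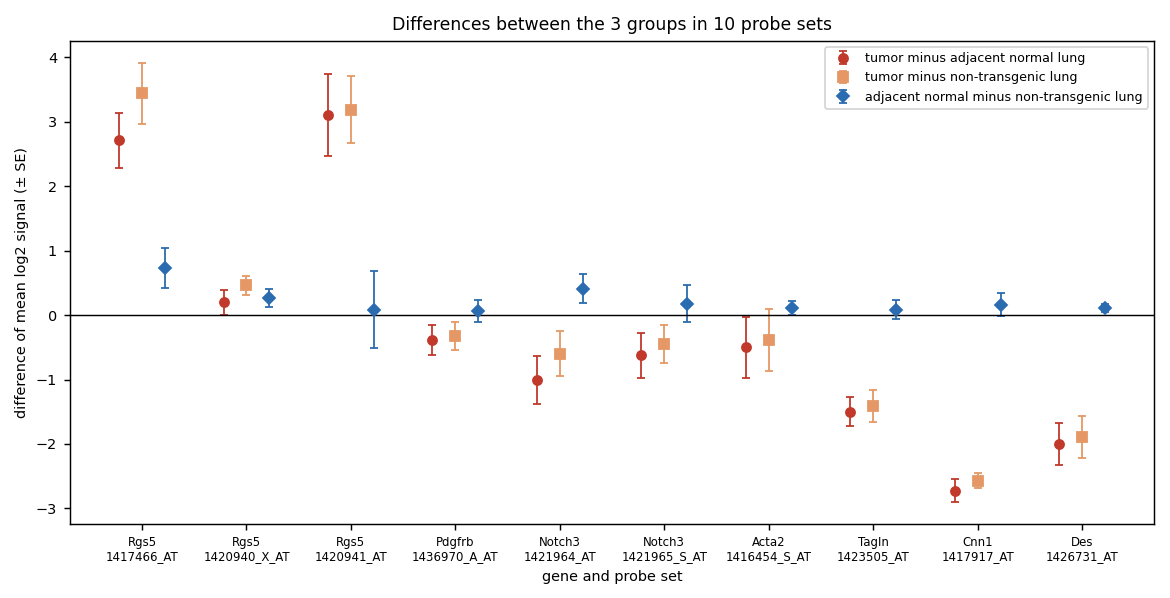
Difference of mean log2 signal (vertical axis, with SE from 4 arrays in each group) for tumor minus adjacent normal lung, tumor minus non-transgenic lung and adjacent normal minus non-transgenic lung in each of the 10 probe sets (horizontal axis). The differences of the tumors run from 3.44 in Rgs5 to -2.73 in Cnn1, while those between the 2 kinds of lung stay between 0.06 and 0.73.

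The series design says that tumors and adjacent normal lungs were taken from 4 transgenic mice, and the tissue codes of the labels imply that equal numbers mark the same mouse, although the methods describe the samples as independent. Deviations from the group means correlated by only -0.03 to 0.11 between tumor and lung of a number over the probe sets tested. Taken by number, the tumor had the higher signal in 4 of 4 pairs for both brighter Rgs5 probe sets, and the lower signal in 4 of 4 pairs for Pdgfrb, both Notch3 probe sets, Tagln, Cnn1 and Des. Of all probe sets tested, 22.5% were higher and 19.4% lower in the tumor in 4 of 4 pairs. Pairs 1 to 4 differed by 3.16, 1.35, 2.99 and 3.34 in Rgs5 1417466_AT, and pair 2 was the smallest by more than 1 unit. In Cnn1 they differed by -2.57, -2.49, -3.26 and -2.59, where the tumor level was not shown to be above background and the sizes are uncertain. In Des the differences were -2.23, -1.09, -2.59 and -2.09, and pair 2 was again the smallest. In Acta2 they were 0.79, -1.44, -0.93 and -0.42, with pair 1 on the opposite side of 0 from the other pairs. Pdgfrb differed by -0.06 in pair 4 and by -0.73 in pair 1.

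**Figure D3:**
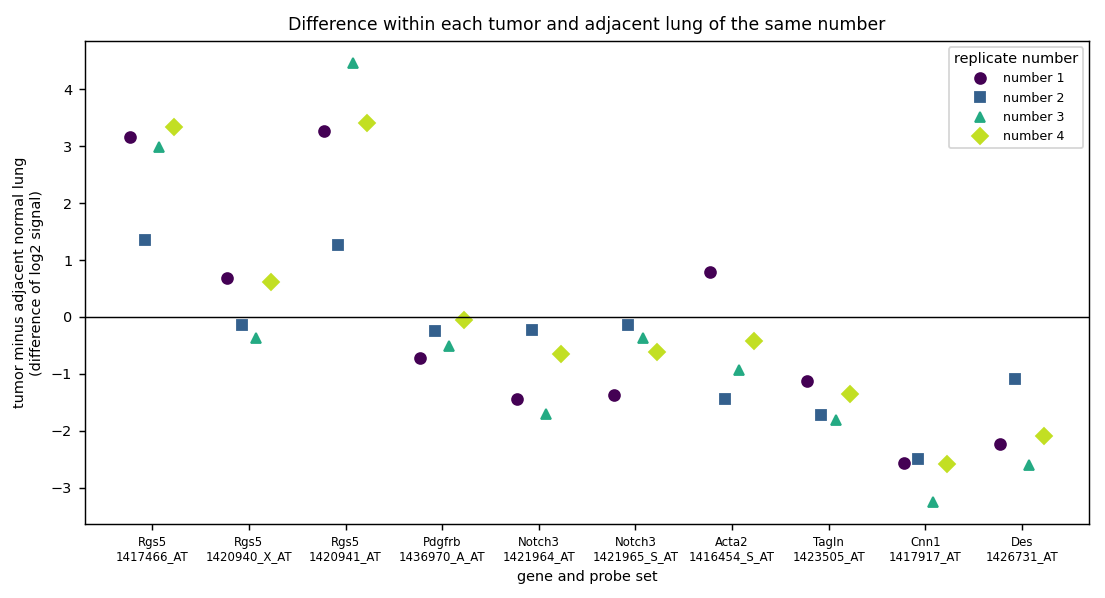
Log2 signal of each tumor minus that of the adjacent normal lung of the same number (vertical axis) for the 10 probe sets (horizontal axis), with 1 symbol per number. In Rgs5 1417466_AT all 4 points lie between 1.35 and 3.34 with number 2 lowest, in Cnn1 between -3.26 and -2.49, and in Acta2 on both sides of 0.

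The question whether lung of transgenic mice differed from lung of non-transgenic mice in these genes compares no tumor mean and was tested with limma over all 23538 probe sets. The tumor arrays were in the same fit and entered its estimate of the spread. Whether this comparison also weighed in the choice of the members is not recorded. None of the 9 members tested passed a Benjamini-Hochberg adjusted p of 0.05 (limma adjusted p = 1 for each, after rounding), and none had an unadjusted p under 0.05. For Rgs5 1417466_AT the limma adjusted p was 0.75 without tumor 2, 0.73 in a fit of the 8 lungs alone and 0.63 without tumor 2 and adjacent normal lung 3. Over all probe sets 0 passed, which is 0% of those tested, and 835 had an unadjusted p under 0.05. The member with the lowest unadjusted p was Rgs5 1417466_AT (limma unadjusted p = 0.069), which was higher in adjacent normal lung by 0.73 (limma SE 0.37). Adjacent normal lungs 2 and 4 (6.93 and 6.85) lay above all non-transgenic lungs, and the ranges of the groups overlapped. The other bright Rgs5 probe set differed by 0.09 (limma SE 0.52), and its sign turned when single lungs were left out. Notch3 1421964_AT differed by 0.41 (limma SE 0.30), while Acta2, Tagln, Cnn1, Pdgfrb and Des differed by 0.06 to 0.16. The means of all 10 probe sets were on the higher side in adjacent normal lung, as were those of 51.3% of all probe sets tested. The signs of Tagln and Pdgfrb also turned when single lungs were left out. In no member were the 4 arrays of 1 group all above those of the other, which 2.54% of all probe sets were on the higher side and 2.24% on the lower side.

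Members also differed in how their signals varied among arrays of the same group. The tumors had the largest SD of the 3 groups in 8 of the 10 probe sets, the exceptions being Rgs5 1420941_AT and Cnn1. Over all probe sets tested the median SD was also largest in tumors, at 0.31 against 0.22 in adjacent normal lung and 0.19 in non-transgenic lung. To compare members apart from the difference between groups, each array was expressed as its deviation from its group mean, and Pearson's r of these deviations was computed over the 12 arrays, as a description without a test. The 2 brighter Rgs5 probe sets followed each other (r = 0.84). Acta2 and Tagln followed each other as closely (r = 0.84, or 0.80 without tumor 2 and adjacent normal lung 3 and 0.88 over the 8 lungs). Pdgfrb followed Notch3 with r = 0.78 for 1421964_AT and 0.77 for 1421965_S_AT, or 0.88 and 0.86 without those 2 arrays. The 2 Notch3 probe sets followed each other with r = 0.72. Des followed Notch3 with r = 0.72 for 1421964_AT and 0.56 for 1421965_S_AT, or 0.84 and 0.26 without tumor 2. Between Des and Acta2 r was -0.48, and between Des and Tagln it was -0.26. Without tumor 2 these were 0.70 and 0.68, so that 1 tumor set the sign of both. For Rgs5 1417466_AT, r was 0.17 with Pdgfrb (0.31 without tumor 2). It was -0.19 with Notch3 1421964_AT and -0.09 with 1421965_S_AT, and 0.23 and 0.41 without tumor 2, so that 1 tumor set the sign of both. With Acta2 it was 0.38 over the 12 arrays, -0.20 without tumor 2 and -0.75 over the 8 lungs, and with Tagln it was 0.25, -0.16 and -0.65. Its r with Des was -0.65 and became -0.02 without tumor 2, the array with the lowest Rgs5 and the highest Des of the tumors. For Rgs5 1420941_AT, r was -0.06 with Notch3 1421964_AT and 0.18 with 1421965_S_AT, or 0.22 and 0.57 without tumor 2. It was 0.31 with Pdgfrb, 0.19 with Acta2, 0.08 with Tagln and -0.47 with Des. Without tumor 2 these were 0.39, -0.23, -0.22 and -0.07. Tumors and adjacent normal lungs of a number may share a mouse, so that the 12 arrays are not independent points.

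**Figure D4:**
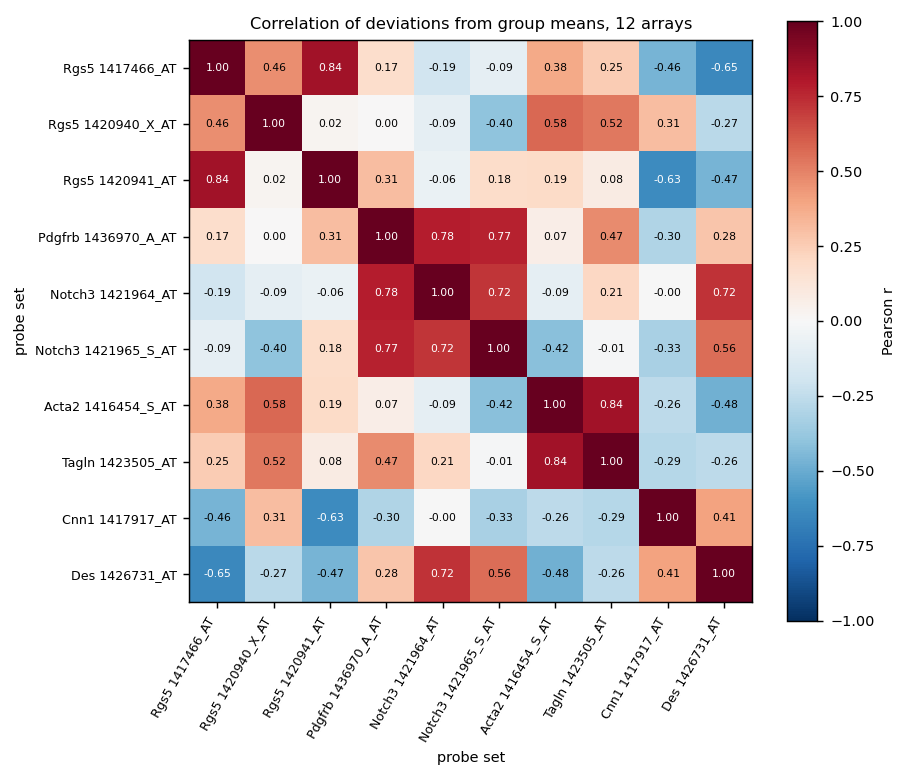
Pearson's r between each pair of the 10 probe sets (both axes), over the deviations of the 12 arrays from their group means, with the colour scale from -1 to 1. Blocks of high r join the 2 brighter Rgs5 probe sets (0.84), Acta2 with Tagln (0.84) and Pdgfrb with both Notch3 probe sets (0.78 and 0.77). The 2 Notch3 probe sets (0.72) and Notch3 1421964_AT with Des (0.72) are also joined.

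By the same measure, the probe set most like the mean of the 3 Rgs5 probe sets was 1419620_AT (r = 0.96), out of all probe sets tested that were no members. It was also first (r = 0.96) when the dim 1420940_X_AT was left out of the mean, a choice made after the data were seen, and 6 of the 8 most alike were shared by both rankings. Second place went to 1435129_AT with the 3 probe sets and to 1440346_AT with 2. For 1435129_AT, r was only 0.14 over the 12 arrays when group means were not removed. A ranking of so many probe sets over 12 arrays gives high r at its top by selection alone. It was not repeated without tumor 2 or adjacent normal lung 3. The 8 most alike had differences of tumor over adjacent normal lung of 0.07 to 1.30 with 3 probe sets and of 0.09 to 1.30 with 2. Their genes are not paired with them in the tables used here. With the 2 probe sets that passed the filter, 32.5% of all probe sets tested had a higher r with Rgs5 than Acta2 did. This share was 33.8% for Pdgfrb, 40.9% for Tagln, 46.4% for Notch3 1421965_S_AT and 59.0% for Notch3 1421964_AT. For Des it was 88.8% and for Cnn1 90.2%. Tumor 2 is included in these shares, and without it r of Rgs5 1417466_AT was -0.20 with Acta2 and -0.02 with Des. With Cnn1, r of 1417466_AT was -0.46 over the 12 arrays and -0.28 without tumor 2. It was -0.07 without tumor 2 and adjacent normal lung 3. For Rgs5 1420941_AT with Cnn1 these values were -0.63, -0.54 and 0.18, so that these 2 arrays set the sign of the latter.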

How the data were processed

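The authors deposited 1 log2 signal per probe set and array for 12 Affymetrix mouse whole-genome arrays, hybridized with biotin-labelled cRNA. The methods name Robust Multichip Average with background correction and the submitters' processing notes name GCRMA, and these sources do not settle which made the table. No depth exists for arrays, and 4 arrays per group limit the precision. Sample titles gave the group and number of each array. The members and gene lists were chosen with earlier results of these data known. Fixed lists of further pericyte, muscle, PDGF, Notch and RGS genes and of cell type markers were not analysed, because no table used here pairs probe sets with genes, so the tissue labels were not checked against markers.

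A probe set was tested if it exceeded the table median (4.18) in at least 4 arrays (23538 of 45037, with 64 control sets left out). The 3 groups were fitted together without a block in limma 3.58.1 (R 4.3.3), with Benjamini-Hochberg adjustment at 0.05, and tested on simulated data. Members were all named. Probe sets most like Rgs5 were ranked by r of deviations from group means. Samples of a group are separate tissues, and tumor and adjacent lung of a number may share a mouse. Their deviations over the probe sets tested correlated by -0.03, 0.10, 0.07 and 0.11 in pairs 1 to 4. Promoter windows came from RefSeq. Alternatives were other filters, normalizations, a floor, left-out arrays, variance models, the replicate block, a random block for the mouse and an unequal-variance test. The methods give the unequal-variance test as their general test, and for the arrays they name an analysis of variance.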

Additional observations from a re-analysis of the deposited data

Results flagged for a closer look

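Each of the 10 probe sets was searched in each of the 3 groups for a single distant array by Dixon's ratio of gap to range. This found 2 among 30, and about 1 in 20 would be found by chance. Notch3 1421964_AT was at 6.84 in adjacent normal lung 1 and at 6.10 to 6.22 in the other adjacent normal lungs. Rgs5 1420940_X_AT was at 2.92 in non-transgenic lung 4 and at 2.74 to 2.76 in the others, a level at which no signal was shown to be above background.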

How the results depend on the processing

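Leaving out both arrays that stood apart (tumor 2, adjacent normal lung 3) and the looser promoter search were chosen after the data were seen. Over the alternatives run, the median difference over the 7 genes kept its sign, at -1.16 to -0.59 against adjacent normal lung and -0.79 to -0.29 against non-transgenic lung. With 1 array left out it was -1.01 to -0.59 and -0.79 to -0.29, with the values nearest 0 both without tumor 3, and the second value was -0.79 without tumor 1. It was -0.81 and -0.52 with the replicate block, which leaves a balanced difference as it is and called 0 members between the lung groups. With each array centred on its median it was -0.70 and -0.45. The same centring changed the difference from adjacent normal lung to -0.27 for Pdgfrb and -0.38 for Acta2. No member was called between the lung groups under any of the 24 alternatives, 0 to 0 with 1 array left out, at a lowest adjusted p of 0.63. In that comparison the sign of Rgs5 1420941_AT turned to -0.09 without non-transgenic lung 3, -0.08 without non-transgenic lung 4, -0.18 without adjacent normal lung 2 and -0.11 without adjacent normal lung 4, Tagln to -0.037 without non-transgenic lung 1, and Pdgfrb to -0.03 without non-transgenic lung 1 and -0.040 without adjacent normal lung 1. With 1 array left out, these differences ranged from -0.18 to 0.55 for Rgs5 1420941_AT, from -0.037 to 0.17 for Tagln 1423505_AT and from -0.040 to 0.17 for Pdgfrb 1436970_A_AT. The signs of all 10 members against both lung groups held in the 18 alternatives run for them. The counts of listed genes planned for the tumor comparisons were not run, because the table names no genes.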
